A study of Mus musculus with 6 samples.

Results

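The 10 genes described belong to the transforming growth factor beta (TGF-beta) pathway and were measured in mouse squamous cell carcinoma (SCC) cells with and without focal adhesion kinase (FAK). They are the 3 ligand genes Tgfb1, Tgfb2 and Tgfb3, the 3 receptor genes Tgfbr1, Tgfbr2 and Tgfbr3, and the 4 SMAD genes Smad2, Smad3, Smad4 and Smad7. The genes were selected by identifier, with earlier results of the same arrays in view, and all 10 were found among the 17204 genes measured. The arrays therefore had a part in the choice, and the tests on these genes describe them without being independent evidence.

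The study asked how FAK in the carcinoma cells affects the secreted factors that act on regulatory T cells. Skin tumours were raised with the carcinogen DMBA and the tumour promoter TPA in FVB mice carrying K14CreER and floxed fak alleles, and cells isolated from them were treated with 4-hydroxytamoxifen to delete the gene. SCC FAK-/- cells are a FAK-null clone obtained in this way, and SCC FAK-wt cells are the same clone transduced with a retrovirus that re-expresses wild-type FAK. Both groups thus carry the deletion and have the same history of Cre activity. The SCC FAK-wt line alone was kept under 0.25 mg/ml hygromycin, so transduction and drug selection cannot be told apart from FAK itself, and both groups grew in Glasgow MEM with 10% fetal bovine serum. Each group had 3 arrays, described by the submitters as biological replicates. All descend from 1 clone, so the spread between arrays does not cover differences between clones. Values are log2 expression after Robust Multi-array Average (RMA) normalization, 1 value per gene and array, made from 50 ng of RNA per sample. The median over all genes lay between 5.90 and 5.97 on the 6 arrays. An array value reflects the probes as well as the transcript, so levels are compared between arrays for each gene and not between genes, other than in a filter on low mean values used as an alternative.

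TGF-beta is secreted in a latent form and, once released, binds the type II receptor, which then phosphorylates the type I receptor. The type I receptor phosphorylates Smad2 and Smad3, which join Smad4 and move to the nucleus to regulate transcription, while Smad7 is induced by the pathway and blocks it at the receptor. In skin the pathway restrains the growth of keratinocytes, and in carcinomas it is known for promoting invasion and for favouring regulatory T cells.

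SCC FAK-wt replicate 2 stood apart from the other arrays of its group in these genes. It had either the highest or the lowest of the 3 SCC FAK-wt values in 10 of 10 genes, a position it held in 69.6% of all genes. In 9 of the 10, every gene but Tgfb3, its distance to the nearer of the other SCC FAK-wt arrays was larger than the distance between those, as in 36.9% of all genes. Such positions were not rare across the table, where SCC FAK-/- replicate 3 was outermost in its group in 71.6% of all genes and apart in the same sense in 38.7%, both above SCC FAK-wt replicate 2. Across all genes the latter's median absolute deviation from the group mean was 0.11 log2 units, against 0.10 for each of replicates 1 and 3 and 0.11 for SCC FAK-/- replicate 3. Array weights fitted over all genes gave it the lowest weight of the 6 arrays, 0.720, against 1.13 for SCC FAK-wt replicate 1 and 0.934 for replicate 3, and SCC FAK-/- replicate 3 was next lowest at 0.786. The log2 fold change of each gene and the counts of genes are given with and without it. The array was singled out after the values were seen, and the reason for its position was not tested. Being apart in this sense takes no account of size. In Smad2, one of the genes counted, the SCC FAK-wt arrays spanned only 0.082 log2 units.

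None of the 10 genes separated SCC FAK-wt from SCC FAK-/- at a Benjamini-Hochberg adjusted p under 0.05 in limma (0 of 10), a level reached by 330 of all genes (1.92%). At an unadjusted p under 0.01, the level named in the study's methods, 2 of 10 passed, Tgfb3 and Tgfbr1, both with lower values in SCC FAK-wt, against 6.85% of all genes. At an unadjusted p under 0.05, 5 of 10 passed, namely Tgfb1, Tgfb2, Tgfb3, Tgfbr1 and Smad3, against 15.5% of all genes. The arrays of the groups did not overlap in 5 of 10 genes, Tgfb2, Tgfb3, Tgfbr1, Smad3 and Smad7, against 21.5% of all genes. Because the genes were chosen with these arrays known, nothing is read from the distance between these counts and the percentages. Without moderation of the variances limma's linear model also called 0 of 10, against 0.227% of all genes, and with trended and robust moderation it called 1, Tgfb3, against 3.19% of all genes. The limma fit that left out SCC FAK-wt replicate 2 called 1 of 10 at an adjusted p under 0.05, Tgfb1, against 1.03% of all genes. At an unadjusted p under 0.01, 3 passed in that fit, Tgfb1, Tgfb2 and Tgfb3, against 5.64% of all genes, and Tgfbr1 no longer did. An unadjusted p under 0.05 was reached there by 4, the ligand genes and Tgfbr1, against 14.7% of all genes. The remaining arrays did not overlap in 7 of 10 genes, with Tgfb1 and Tgfbr3 joining the other 5, against 32.3% of all genes. Tgfbr1 also missed an unadjusted p under 0.01 without SCC FAK-wt replicate 1, where Tgfb3 and Smad3 passed against 5.79% of all genes. It missed it too without SCC FAK-/- replicate 1, 2 or 3, where Tgfb3 was the only one of the 10 to pass, against 4.96%, 4.61% and 4.89% of all genes. With 3 arrays in each group, the smallest two-sided p that an exact permutation test can reach is 0.1. The median log2 fold change, SCC FAK-wt minus SCC FAK-/-, was -0.14 over the 10 genes and 0.016 over all genes. Its median absolute size was 0.48 over the 10 genes and 0.14 over all genes, and with SCC FAK-wt replicate 2 left out it was 0.25 and 0.15. The median itself was then -0.097 over the 10 genes and 0.023 over all genes.

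**Figure D1:**
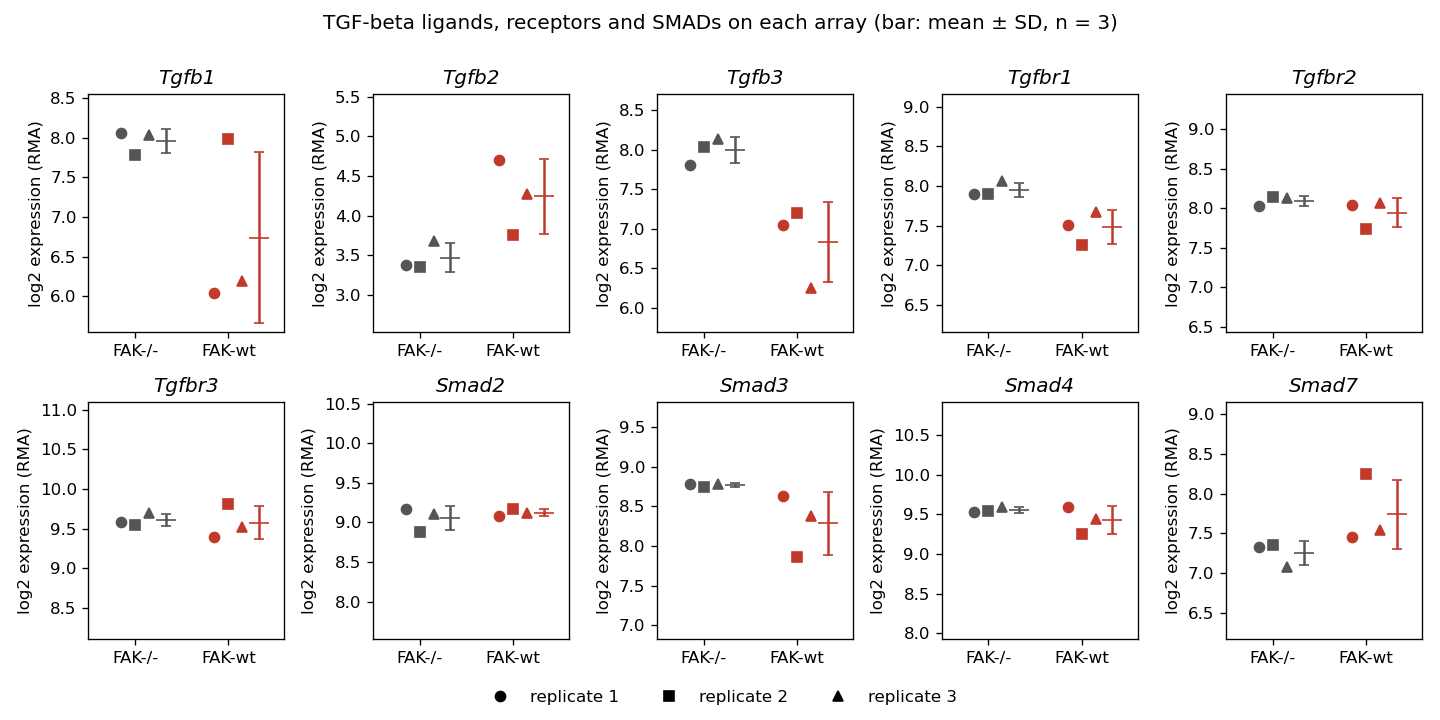
Log2 expression (RMA) of each of the 10 genes on the 6 arrays, with SCC FAK-/- in grey and SCC FAK-wt in red, marker shape giving the replicate, and bars giving the mean ± SD (n = 3). Every panel spans the same number of log2 units, and the square SCC FAK-wt marker of Tgfb1, at 7.98, lies among the SCC FAK-/- arrays while the other SCC FAK-wt arrays lie at 6.04 and 6.20.

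With all arrays, the ligand genes had the largest log2 fold changes in size, and these did not all point the same way. Without SCC FAK-wt replicate 1 that order did not hold, as Tgfb2 (0.54) was then smaller in size than Smad3 (-0.66) and Smad7 (0.64). Tgfb1 (ENSMUSG00000002603), the ligand best known for restraining T cells, had log2 values of 6.04 on replicate 1, 7.98 on replicate 2 and 6.20 on replicate 3 of SCC FAK-wt, and of 8.06, 7.78 and 8.04 on the same replicates of SCC FAK-/-. Replicates 1 and 3 of SCC FAK-wt were far below every SCC FAK-/- array, whereas replicate 2 was inside the SCC FAK-/- range, so the groups overlapped. The values of the other genes are given in the same order of replicates. The mean of Tgfb1 was 6.74 ± 1.08 (SD, n = 3) in SCC FAK-wt and 7.96 ± 0.16 (SD, n = 3) in SCC FAK-/-. For all 6 arrays, the log2 fold change of -1.22 (95% interval -2.33 to -0.11, like the other intervals not adjusted for the number of genes) corresponds to a 2.33-fold lower level in SCC FAK-wt and did not pass the test (limma, Benjamini-Hochberg adjusted p = 0.277). The SD of Tgfb1 among the SCC FAK-wt arrays was at percentile 99.7 of the SDs of all genes in that group. Without SCC FAK-wt replicate 2 the log2 fold change was -1.84 (95% interval -2.17 to -1.51), a 3.58-fold lower level, and it passed the test (limma adjusted p = 0.00713). Over the 14 alternatives the adjusted p of Tgfb1 ran from 0.00713 to 0.510 in limma, and the log2 fold change was weakest, at -0.87, without SCC FAK-wt replicate 1. Leaving out an array that lies apart narrows the spread by construction, and 2 SCC FAK-wt arrays remain in that fit.

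Tgfb2 (ENSMUSG00000039239), the ligand that depends on betaglycan for efficient binding to the type II receptor, had log2 values of 4.71, 3.76 and 4.27 in SCC FAK-wt and of 3.37, 3.36 and 3.68 in SCC FAK-/-. All SCC FAK-wt arrays were above all SCC FAK-/- arrays, but SCC FAK-wt replicate 2 cleared SCC FAK-/- replicate 3 by only 0.079 log2 units. Tgfb2 was the only ligand gene with higher values in SCC FAK-wt, with a mean of 4.24 ± 0.47 (SD, n = 3) against 3.47 ± 0.18 (SD, n = 3). This is a log2 fold change of 0.77 (95% interval 0.22 to 1.33), a 1.71-fold difference that did not pass the test (limma adjusted p = 0.163). Without SCC FAK-wt replicate 2 it was 1.02 (95% interval 0.59 to 1.45) and again did not pass (limma adjusted p = 0.0738, where the 13 alternatives with a value gave 0.0738 to 0.381). Tgfb2 was the only one of the 10 genes removed by the filter on low mean values, and RMA values near the background can understate a change.

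Tgfb3 (ENSMUSG00000021253), a ligand known for its part in palate fusion and wound repair, had log2 values of 7.04, 7.20 and 6.26 in SCC FAK-wt and of 7.81, 8.03 and 8.14 in SCC FAK-/-. Every SCC FAK-wt array was below every SCC FAK-/- array, with a gap of 0.61 log2 units between the groups, the widest gap among the 10 genes with all arrays. Here replicate 3, and not replicate 2, was the SCC FAK-wt array farthest from the others. The mean was 6.83 ± 0.50 (SD, n = 3) in SCC FAK-wt and 7.99 ± 0.17 (SD, n = 3) in SCC FAK-/-. The log2 fold change of -1.16 (95% interval -1.73 to -0.59), a 2.24-fold lower level in SCC FAK-wt, had the lowest adjusted p of the 10 genes with all arrays and did not pass the test (limma adjusted p = 0.0696). With trended and robust moderation it passed (limma adjusted p = 0.0454), and the 14 alternatives gave adjusted p from 0.0454 to 0.243. Without SCC FAK-wt replicate 2 the log2 fold change was -1.34 (limma adjusted p = 0.0801), and it was weakest, at -0.87, without SCC FAK-wt replicate 3.

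Since the ligand genes went in different directions, differences between them were also taken on each array, where a shift shared by all genes of an array cancels. Tgfb2 minus Tgfb1 was -1.33, -4.22 and -1.93 log2 units in SCC FAK-wt and -4.68, -4.42 and -4.36 in SCC FAK-/-. All SCC FAK-wt arrays were above all SCC FAK-/- arrays, but replicate 2 was close to them and replicates 1 and 3 were far away. Tgfb2 minus Tgfb3 was -2.34, -3.44 and -1.99 in SCC FAK-wt and -4.44, -4.68 and -4.46 in SCC FAK-/-. In this pair the groups had to be apart, since Tgfb2 and Tgfb3 each separated them, in opposite directions. Replicate 2 lay between the other SCC FAK-wt arrays and the SCC FAK-/- arrays. Tgfb1 minus Tgfb3 was -1.003, 0.78 and -0.061 in SCC FAK-wt and 0.25, -0.26 and -0.097 in SCC FAK-/-, and here the groups overlapped, with SCC FAK-wt holding both the lowest and the highest value. Such a difference does not show which gene of a pair changed, and no test was made on it. Under every alternative that gave a value, the 3 further scalings and each left-out array included, the log2 fold changes of Tgfb1 and Tgfb3 were below 0 and that of Tgfb2 above 0.

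The profile of Tgfb1, the gene with the largest absolute log2 fold change of the 10 when all arrays are used, was compared with all others by Euclidean distance between log2 values centred on each gene's mean over the 6 arrays. Tgfb3 was the closest of the other members at a distance of 1.32, rank 59 of 17203 genes, and Tgfb2 the most distant at 3.27, rank 17081. The log2 fold change of Tgfb3 was the larger in size without SCC FAK-wt replicate 1 (-1.27 against -0.87) and without SCC FAK-/- replicate 1 (-1.25 against -1.17). The distance depends on the size of the differences as well as on their pattern. It is taken on the same 6 arrays as the log2 fold changes, so the ranks partly restate their size and sign.

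Among the receptor genes, Tgfbr1 had the largest log2 fold change. Tgfbr1 (ENSMUSG00000007613), the type I receptor kinase that phosphorylates Smad2 and Smad3, had log2 values of 7.51, 7.26 and 7.68 in SCC FAK-wt and of 7.90, 7.90 and 8.06 in SCC FAK-/-. All SCC FAK-wt arrays were below all SCC FAK-/- arrays, and replicate 2 was the lowest. The mean was 7.48 ± 0.21 (SD, n = 3) in SCC FAK-wt and 7.95 ± 0.091 (SD, n = 3) in SCC FAK-/-. The log2 fold change of -0.47 (95% interval -0.78 to -0.16), a 1.39-fold lower level, did not pass the test (limma adjusted p = 0.137). Without SCC FAK-wt replicate 2 it was -0.36 (limma adjusted p = 0.244, where the 14 alternatives gave 0.103 to 0.314).

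Tgfbr2 (ENSMUSG00000032440), the type II receptor that binds the ligand and activates the type I receptor, had log2 values of 8.03, 7.74 and 8.06 in SCC FAK-wt and of 8.02, 8.14 and 8.13 in SCC FAK-/-. Apart from the low SCC FAK-wt replicate 2 the arrays were close together, and the groups overlapped. Tgfbr2 had a log2 fold change of -0.15 (95% interval -0.43 to 0.13, limma adjusted p = 0.637), and -0.046 without that array. Tgfbr3 (ENSMUSG00000029287), which encodes the co-receptor betaglycan, had log2 values of 9.40, 9.80 and 9.52 in SCC FAK-wt and of 9.59, 9.54 and 9.70 in SCC FAK-/-. SCC FAK-wt held both the lowest and the highest of these values, with replicate 2 the highest. Tgfbr3 had a log2 fold change of -0.033 (95% interval -0.34 to 0.27, limma adjusted p = 0.942). Without SCC FAK-wt replicate 2 it was -0.15 (limma adjusted p = 0.629, where the 14 alternatives gave 0.629 to 0.999), and the remaining SCC FAK-wt arrays were below the SCC FAK-/- arrays. Its sign turned without SCC FAK-wt replicate 1 (0.055) and without SCC FAK-/- replicate 3 (0.011), so no direction is given. The intervals of Tgfbr2 and Tgfbr3 include 0 and have a width that does not show equal levels.

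Of the SMAD genes, Smad3 and Smad7 had groups that did not overlap. Smad3 (ENSMUSG00000032402), a receptor-activated SMAD that binds DNA, had log2 values of 8.64, 7.86 and 8.37 in SCC FAK-wt and of 8.79, 8.75 and 8.78 in SCC FAK-/-. The SCC FAK-/- arrays were within 0.040 log2 units of each other, and all SCC FAK-wt arrays were below them, replicate 2 by far the most. The mean was 8.29 ± 0.40 (SD, n = 3) in SCC FAK-wt and 8.77 ± 0.021 (SD, n = 3) in SCC FAK-/-. The log2 fold change of -0.48 (95% interval -0.93 to -0.032) did not pass the test (limma adjusted p = 0.287), and without SCC FAK-wt replicate 2 it was -0.27 (limma adjusted p = 0.394, where the 14 alternatives gave 0.157 to 0.473).

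Smad7 (ENSMUSG00000025880), the inhibitory SMAD, had log2 values of 7.45, 8.24 and 7.54 in SCC FAK-wt and of 7.33, 7.35 and 7.08 in SCC FAK-/-. All SCC FAK-wt arrays were above all SCC FAK-/- arrays, replicate 2 clearly and the other two narrowly, with a gap of 0.098 log2 units between the groups. The mean was 7.74 ± 0.44 (SD, n = 3) in SCC FAK-wt and 7.25 ± 0.15 (SD, n = 3) in SCC FAK-/-. The log2 fold change of 0.49 (95% interval -0.019 to 1.00) did not pass the test (limma adjusted p = 0.341), and without SCC FAK-wt replicate 2 it was 0.24 (limma adjusted p = 0.474, where the 14 alternatives gave 0.269 to 0.572). The array with the highest Smad7 value of the SCC FAK-wt group was thus also the one with the lowest Smad3 value. Smad7 minus Smad3 was -1.19, 0.39 and -0.84 in SCC FAK-wt and -1.46, -1.40 and -1.70 in SCC FAK-/-. All SCC FAK-wt arrays had to be above all SCC FAK-/- arrays here, since each gene separated the groups, in opposite directions.

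Smad2 (ENSMUSG00000024563), the other receptor-activated SMAD of this pathway, had log2 values of 9.08, 9.16 and 9.12 in SCC FAK-wt and of 9.17, 8.88 and 9.11 in SCC FAK-/-. The groups overlapped, and only SCC FAK-/- replicate 2 lay outside a narrow band. Its log2 fold change was 0.069 (95% interval -0.19 to 0.33, limma adjusted p = 0.841) with all arrays, 0.048 without SCC FAK-wt replicate 2 and -0.016 without SCC FAK-/- replicate 2, so no direction is given. Smad4 (ENSMUSG00000024515), the common partner of the receptor-activated SMADs, had log2 values of 9.59, 9.25 and 9.45 in SCC FAK-wt and of 9.53, 9.54 and 9.60 in SCC FAK-/-. The groups overlapped because SCC FAK-wt replicate 1 lay among the SCC FAK-/- arrays, and replicate 2 was again the lowest. Its log2 fold change was -0.13 (95% interval -0.40 to 0.15, limma adjusted p = 0.691). It was -0.036 without SCC FAK-wt replicate 2 and -0.21 without SCC FAK-wt replicate 1.

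**Figure D2:**
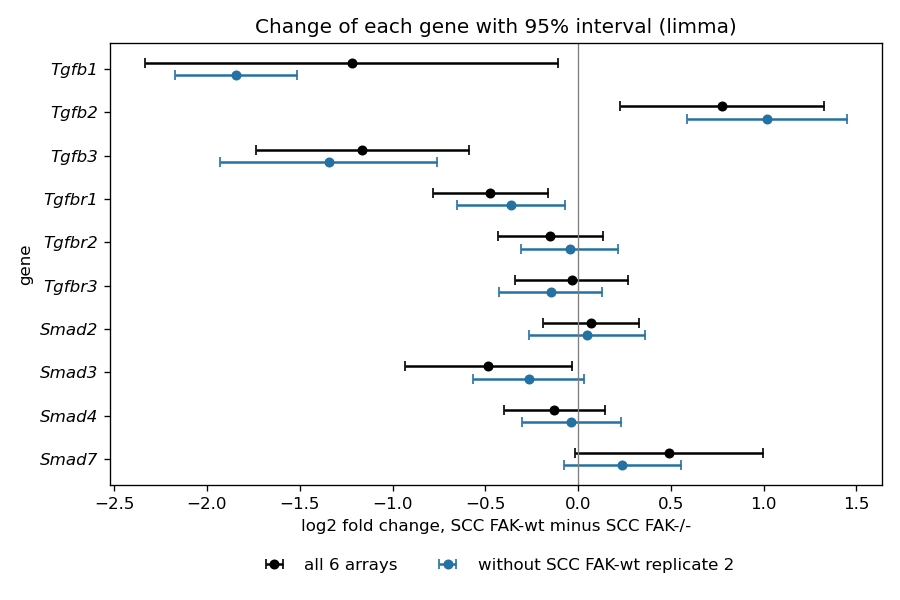
Log2 fold change of each gene, SCC FAK-wt minus SCC FAK-/-, with its 95% limma interval, from all 6 arrays (black) and without SCC FAK-wt replicate 2 (blue). Leaving out that array moves Tgfb1 from -1.22 to -1.84 and narrows its interval, while Smad3 moves from -0.48 to -0.27 and Smad7 from 0.49 to 0.24.

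The SD was larger in SCC FAK-wt in 9 of the 10 genes, all but Smad2, as it was in 53.5% of all genes. The median SD of the 10 genes was 0.31 log2 units in SCC FAK-wt and 0.12 in SCC FAK-/-, against 0.15 and 0.15 over all genes. With SCC FAK-wt replicate 2 left out, the SD of the remaining 2 arrays was larger than that of SCC FAK-/- in 6 of the 10 genes, as in 42.9% of all genes, and its median was 0.11 over the 10 genes and 0.12 over all genes. An SD of 2 arrays is less certain than one of 3, and leaving out an outlying array lowers it by construction. Leaving out SCC FAK-wt replicate 2 made the log2 fold changes of Tgfb1, Tgfb2, Tgfb3 and Tgfbr3 larger in size and those of Tgfbr1, Tgfbr2, Smad2, Smad3, Smad4 and Smad7 smaller. The members' spread was not tested.

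Promoter sequences were taken for the ligand genes Tgfb1 and Tgfb2, shown because their values went in opposite directions. RefSeq promoters on GRCm38.p6 matched 5 of the 10 genes by symbol, Tgfb1, Tgfb2, Tgfbr1 (with 2 entries), Tgfbr2 and Smad3, and the 250 bases before each annotated start were searched. The motifs, on both strands, were the AP-1 site TGANTCA, the cyclic AMP response element TGACGTCA, the SMAD-binding motifs GTCTAGAC and CAGACA, the E-box CACGTG and the TATA motif TATAAA. Of the 250-base stretches before all 32851 annotated starts, 6.75% held TGANTCA, 1.55% TGACGTCA, 0.167% GTCTAGAC, 17.1% CAGACA, 6.02% CACGTG and 12.4% TATAAA. The Tgfb1 sequence is from the plus strand of chr7:25686752-25687001 and the Tgfb2 sequence from the minus strand of chr1:186705990-186706239, both written 5′ to 3′ with motif matches in capitals.
Tgfb1: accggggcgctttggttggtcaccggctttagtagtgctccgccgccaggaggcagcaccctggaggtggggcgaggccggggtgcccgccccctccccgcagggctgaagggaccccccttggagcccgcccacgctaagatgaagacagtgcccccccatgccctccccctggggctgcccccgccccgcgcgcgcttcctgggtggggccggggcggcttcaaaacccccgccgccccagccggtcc
Tgfb2: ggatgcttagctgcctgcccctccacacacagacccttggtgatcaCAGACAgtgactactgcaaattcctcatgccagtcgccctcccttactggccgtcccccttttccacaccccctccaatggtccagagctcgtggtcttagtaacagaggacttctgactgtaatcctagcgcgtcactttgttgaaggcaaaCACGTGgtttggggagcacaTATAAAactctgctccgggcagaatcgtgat

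The Tgfb2 stretch held 3 matches, CAGACA with its outermost base 204 bases before the start, CACGTG at 51 and TATAAA at 31. The Tgfb1 stretch held none of the 6 motifs (0 matches) and was richer in G and C, at 75.2% of bases against 53.6% in Tgfb2. Among the other promoters searched, 1 of the Tgfbr1 entries held CAGACA, at 203 bases before its start, and the other Tgfbr1 entry and those of Tgfbr2 and Smad3 held none of the motifs. A match describes letters in this stretch and not the binding of a factor, and the lack of one says nothing about factors acting elsewhere.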

How the data were processed

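RNA of 3 SCC FAK-wt and 3 SCC FAK-/- samples was hybridized to Affymetrix mouse genome arrays. RMA values per Ensembl gene identifier were made by the authors in the affy package, and the deposited values were read as log2 expression from their range. The package version, probe mapping and form of background correction are not given in the sources used here; the last bears on values near the background. All 17204 genes were fitted, unfiltered, in R 4.3.3 by limma 3.58.1 (two-sided, lmFit followed by eBayes with default settings), and p-values were adjusted by Benjamini-Hochberg over all genes. Intervals are at 95%. The code was tested on simulated data. Alternatives changed the moderation, the scaling between arrays, array weights, a filter on dim genes, a replicate block and the threshold, or left out each array in turn.

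The 10 genes, their names and the gene lists were chosen with earlier results of these data known. All 10 genes are named. The symbol table used (GRCm38.p6) held 0 of the 17204 identifiers. The 7 lists of other pathway genes, the 5 lists of cell type markers, the FAK gene Ptk2 and its relative Ptk2b as a check of the labels, and the 5 genes nearest to Tgfb1 by profile were therefore not analysed here. Array values have no read depth, and 3 arrays per group limit the precision.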

Additional observations from a re-analysis of the deposited data

How the results depend on the processing

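The count of genes called at an adjusted p under 0.05 (0 of 10 with limma) stayed at 0 except in the following alternatives. With trended and robust moderation it was 1 (Tgfb3, log2 fold change -1.16, limma adjusted p = 0.0454), against 3.19% of all genes. Without SCC FAK-wt replicate 2 it was 1 (Tgfb1, -1.84, limma adjusted p = 0.00713), against 1.03% of all genes. The alternatives that kept the count at 0 and were fitted to all 17204 genes called 0.227% to 2.21% of them. The filter on dim genes also kept it at 0, with 3.48% of the 11470 genes left called. Leaving out the arrays singly gave 0 to 1, with 0.628% to 1.09% of all genes called. At an unadjusted p under 0.01 in place of the adjusted one it was 2 (6.85% of all genes), and the alternatives gave 0 (no moderation) to 3 at that level, with 4.61% to 7.80% of all genes, or 9.32% of those left by the filter. Tgfb3 was among them in each alternative but no moderation, while Tgfbr1 was absent from 8 of the 14. Tgfb2 was among them in 5 of the 13 that gave it a value, and Tgfb1 and Smad3 in 1 of the 14 each. The cause of these changes in the calls was not tested. Leaving out a distant array narrows the spread by construction, and the log2 fold change of Tgfb1 also moved, from -1.22 to -1.84. With single arrays left out, the log2 fold change of Tgfb1 was -1.84 to -0.87, that of Tgfbr3 -0.15 to 0.055 and that of Smad2 -0.016 to 0.13. The sign turned for Tgfbr3 without SCC FAK-wt replicate 1 (0.055) and without SCC FAK-/- replicate 3 (0.011), and for Smad2 without SCC FAK-/- replicate 2 (-0.016). Of the 139 log2 fold changes recomputed, 134 kept their direction and their side of the threshold, 3 turned and 2 gained a call. Tgfb2 was removed by the filter on dim genes and has no value there.

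In the fit with a replicate block the count was 0, with 0.930% of all genes called, and the log2 fold changes were unchanged by construction (Tgfb3 -1.16). Deviations of same-numbered arrays from their group means had correlations of -0.034 to 0.028 over genes, and the arrays were not taken as paired. The counts of other pathway genes called higher and lower and the FAK gene were planned and not run, since identifiers were not paired with symbols. Dim genes limit what the arrays can show, as differences near the background can be understated.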
